A study of Mus musculus with 4 samples.

Results

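Late maturation of Müller glia was described by setting the adult library against the postnatal day 11 (P11) library of a mouse retinal miRNA study. The series holds 4 libraries, each 1 pool of sorted retinal cells counted on a nanoString nCounter mouse miRNA panel, and these are 2 of them. The other libraries are Müller glia of day 8 (P8), shown beside them, and retinal progenitors of day 2. All 566 mouse miRNA probes among the 626 probes of the panel were taken, with no selection on their values. Both Müller glia (MG) pools came from mice that carried Rlbp-CreER and a tdTomato reporter behind a floxed stop, described by the labels as Rlbp-Cre:tdTomato. The P11 pool held cells of 32 retinas from mice given tamoxifen on days 9 and 10, and its title reads P11/12. The adult pool held cells of 40 retinas from mice given tamoxifen on 2 days in a row at an age above 21 days. The tamoxifen dose was 75 mg/kg in corn oil, injected intraperitoneally, and tdTomato-positive cells were sorted by FACS. The Rlbp gene, which encodes a retinaldehyde-binding protein, is active in Müller glia and also in the retinal pigment epithelium. With 1 library per age there is neither a replicate check nor a p-value for any difference. Age, age at tamoxifen, the number of pooled retinas and the assay lane differ together between the libraries and cannot be told apart.

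A miRNA is a short RNA that guides Argonaute to messenger RNAs, mainly through its seed, the bases 2 to 8 from its 5′ end, so miRNAs with one seed form a family with overlapping targets. Müller glia span the retina and keep its ions, water and transmitters in balance. In the mouse they leave the cell cycle in the first weeks after birth and then mature. miR-204, miR-125b and miR-9 are among the miRNAs known to be abundant in these cells, the miR-17 family is known from dividing cells, and the miR-29 family is known to accumulate in mature neural tissue.

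The families that carried the difference are shown first, as mature sequences of RefSeq (GRCm38.p6) with the seed in capitals. In the families higher in adult MG, the members with one seed differ only downstream of it, and miR-29a and miR-29c differ at 1 position, as do miR-204 and miR-211.
miR-29a: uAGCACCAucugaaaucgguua
miR-29b: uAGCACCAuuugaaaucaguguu
miR-29c: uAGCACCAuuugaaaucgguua
miR-204: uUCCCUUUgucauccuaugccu
miR-211: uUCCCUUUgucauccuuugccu
miR-30a: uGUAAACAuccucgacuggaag
miR-30c: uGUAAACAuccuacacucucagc
miR-30e: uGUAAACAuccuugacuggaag
miR-125b-5p: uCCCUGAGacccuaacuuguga
miR-125a-5p: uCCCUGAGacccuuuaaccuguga

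The families lower in adult MG included those of miR-17, miR-15 and miR-19, shown here, and that of miR-146. The miR-17 family is shown whole because 4 of its sequences share probes in pairs, miR-106a with miR-17 and miR-20a with miR-20b, and cannot be told apart here.
miR-17: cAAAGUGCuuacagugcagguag
miR-106a: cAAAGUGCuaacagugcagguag
miR-20a: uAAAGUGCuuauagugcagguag
miR-20b: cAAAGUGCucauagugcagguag
miR-106b: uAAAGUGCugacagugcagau
miR-93: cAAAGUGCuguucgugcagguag
miR-15a: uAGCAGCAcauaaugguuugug
miR-15b: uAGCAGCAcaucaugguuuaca
miR-16: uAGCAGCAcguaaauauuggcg
miR-322: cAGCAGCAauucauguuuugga
miR-19a: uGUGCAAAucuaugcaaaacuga
miR-19b: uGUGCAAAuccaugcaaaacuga

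From the let-7 family, 3 members are shown because they share a seed and went apart. let-7i and let-7g differ at 2 positions, and let-7i and let-7c at 4.
let-7c: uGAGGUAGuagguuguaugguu
let-7g: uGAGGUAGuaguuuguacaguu
let-7i: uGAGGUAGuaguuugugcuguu

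In RefSeq's GRCm38.p6 annotation miR-29a lies at chr6:31062673-31062694 on the minus strand, next to a copy of miR-29b. miR-204 lies at chr19:22750610-22750631 on the plus strand within the bounds of Trpm3, and miR-211 at chr7:64205831-64205852 on the plus strand within those of Trpm1. miR-20a lies at chr14:115044183-115044205 on the plus strand among miR-17, miR-19a and a copy of miR-19b. let-7i lies alone at chr10:122985698-122985719 on the minus strand.

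The P11 lane held 583673 counts and the adult lane 769736, of which 484305 (83.0%) and 695390 (90.3%) fell on mouse miRNA probes. Relative to the spiked positive controls the adult lane held more miRNA, 14.8 miRNA counts per control count against 8.18 in P11 MG. Per count of the housekeeping mRNAs there were 78.9 miRNA counts in adult MG and 40.5 in P11 MG. Whether the adult pool held more cells or more miRNA per cell was not tested. A probe was called above background when its raw count passed a threshold set per lane at the mean of its 8 negative probes plus 2 SD, 105.8 counts for P11 MG and 71.7 for adult MG. On that rule 149 probes stood above background in P11 MG and 171 in adult MG, with 141 shared. This order turned when the mean of the negative probes (339 and 328) or the highest negative or viral probe (159 and 140) was taken as background. Counts were scaled so that the 100 most abundant miRNA probes had one geometric mean in every lane, and ratios below are adult over P11 on those normalized counts, with no background subtracted, so ratios near background are understated. Bracketed ranges are exact 95% binomial intervals and cover counting error only.

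Markers of Müller glia and of other retinal cells were read before the comparison. The 8 miRNAs on the Müller glia list were all above background in both libraries, and together they held 57.0% of the P11 miRNA counts and 70.2% of the adult ones. Of these 8, 3 were called higher in adult MG, against 12.8% of all probes. miR-9 and miR-204 also ranked 1 and 4 in the progenitors of day 2, so their abundance does not tell glia from progenitors. Of 9 neuronal miRNAs 3 were above background in either library, miR-124, miR-129-3p and miR-137, and none was called different. Their list summed to 2237 normalized counts in P11 MG and 2206 in adult MG. Of the 3 photoreceptor miRNAs, miR-183 and miR-96 were measured and miR-182 was above background in neither library, and the list went from 1373 to 779. The P8 library held more on both lists, 5573 normalized counts for photoreceptors and 4001 for neurons. The list of microglia and white blood cells went from 688 to 540 with 3 of 5 measured, and the endothelial list from 419 to 269 with 1 of 2 measured. None of 5 mural and mesenchymal or of 3 red blood cell miRNAs, miR-451 among them, stood above background in either library. miR-184, listed for pigment epithelium, had 139.8 and 128.6 normalized counts, and miR-204 and miR-211 are abundant in that tissue too, so they do not tell it from glia.

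Adult MG held more of 4 miRNA families than P11 MG, those of miR-29, miR-30, miR-204 and miR-125, and less of the miR-17, miR-15/16, miR-19 and miR-146 families. Of 179 probes above background in either library, 23 (12.8%) were at least 2-fold higher in adult MG and 22 (12.3%) at least 2-fold lower, each with an interval that left out equality. Those called in either direction made up 25.1%. The remaining 134 were neither, and 104 of these lay within 1.5-fold. No call was a miRNA seen in adult MG alone. The 30 probes above background there and not in P11 MG reached at most 175 raw counts, and none was called. Of the 8 seen in P11 MG alone, miR-376a and miR-450a-5p were called lower as bounds, at least 2.07-fold and 2.41-fold. The other calls, 23 higher and 20 lower, were of miRNAs above background at both ages.

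**Figure D1:**
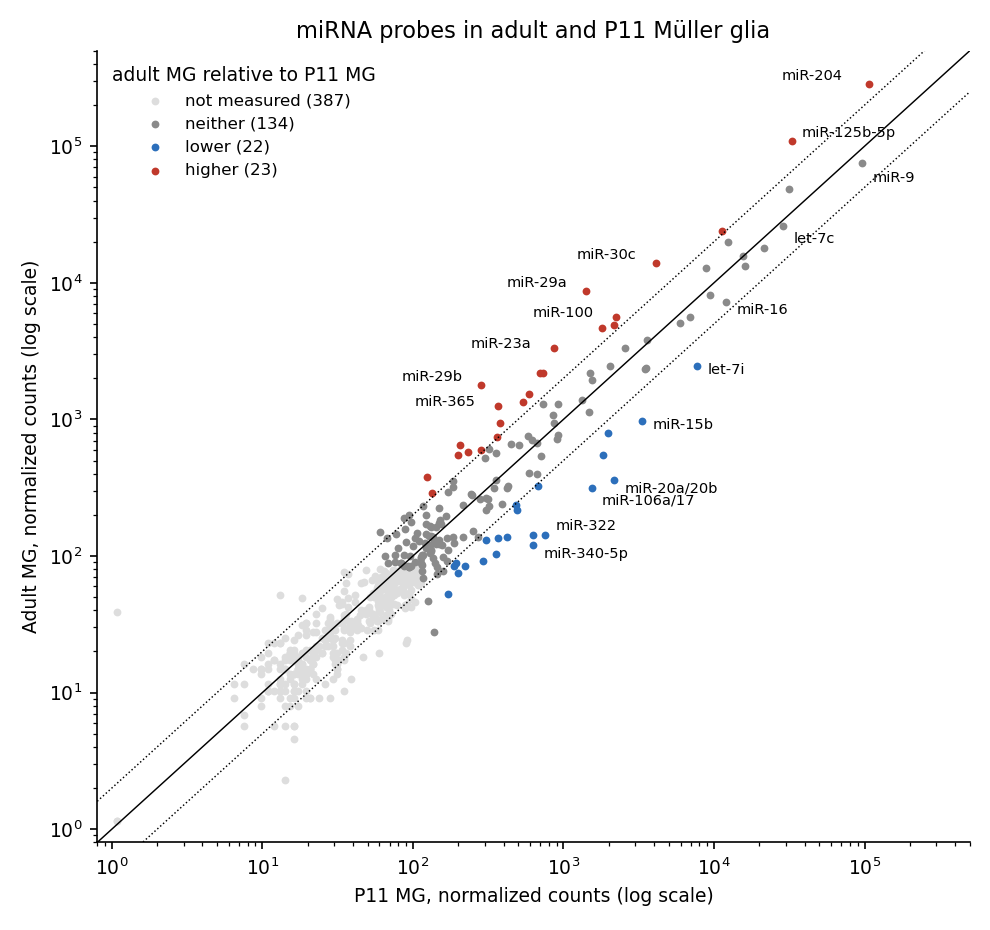
Normalized counts of the 566 mouse miRNA probes in P11 MG (x axis) and adult MG (y axis), both on log scales, 1 library each, with equality as a solid line and 2-fold as dotted lines. The 23 probes called higher lie above the upper dotted line up to miR-204 at the top, the 22 called lower lie below the lower one, and the pale probes are the 387 at or below background in both libraries.

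By share of counts the change in the called probes was lopsided. The 23 higher probes held 32.2% of miRNA counts in P11 MG and 59.3% in adult MG, while the 22 lower probes went from 4.76% to 0.956%. The calls on these same lanes largely set both directions. Of the gain, miR-204 made up 15.1 percentage points and miR-125b-5p 7.41, and miR-204 was not called higher when scaled on total miRNA counts. The 134 probes called neither went from 59.6% to 38.0%. The median log2 ratio of all 179 measured probes was -0.17, with quartiles of -0.48 and 0.39. The scaling largely sets this centre, and scaling on total miRNA counts moved every log2 ratio by -0.61. Of the 134 probes called neither, 36 had ratios that are bounds, and 41 had P11 counts of at least 3 times background. Ratios close to 1 were therefore not read as stable levels.

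Counts were more concentrated in adult MG. The share of the top 10 probes was 71.5% (71.3 to 71.6) at P11 and 79.4% (79.3 to 79.5) in the adult, by exact Clopper-Pearson intervals, and these shares do not depend on the scaling between lanes. At P11, 4 probes made up 50% of counts and 39 made up 90%. In the adult 3 and 23 did, and at P8 6 and 56. With the mean of the negative probes subtracted, 90% took 25 probes at P11, 19 in the adult and 30 at P8, a smaller gap in the same order. The effective number of miRNAs, the exponential of the Shannon entropy, was 38.0 for P8, 28.1 for P11 and 16.7 for adult MG. The Gini coefficient, which is 1 when a single probe takes all counts, was 0.925 in P11 MG and 0.952 in adult MG. Concentration was thus in age order over the 3 glial libraries. The P8 library had more counts on the photoreceptor and neuronal lists, as given above, and their part in this order was not tested.

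**Figure D2:**
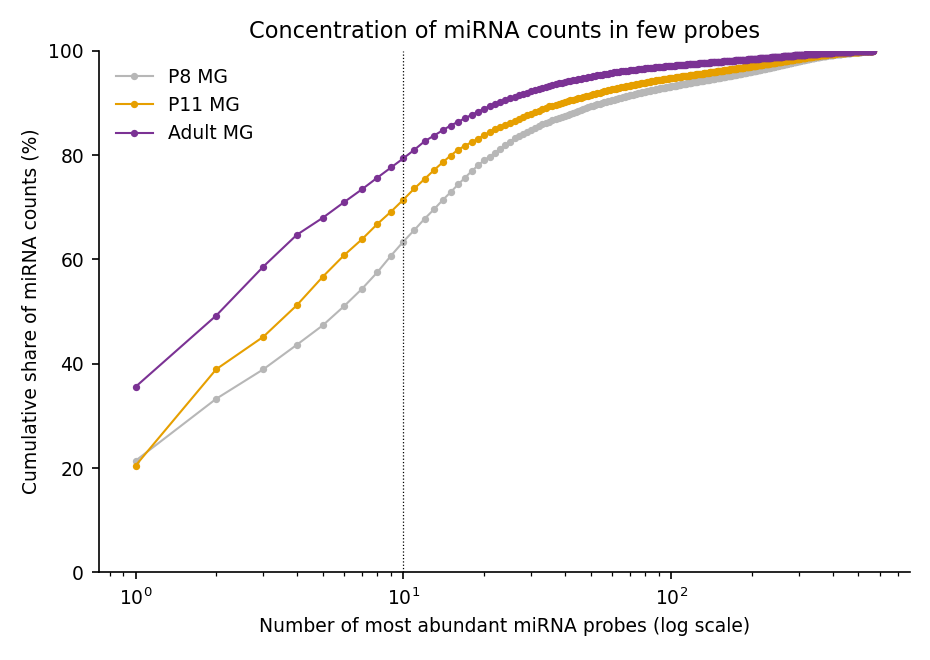
Cumulative share of miRNA counts in percent (y axis) against the number of most abundant probes on a log scale (x axis) in P8, P11 and adult MG, 1 library each, with the dotted line at 10 probes. At 10 probes the adult curve stands at 79.4%, P11 at 71.5% and P8 at 63.4%, and the curves come together further to the right.

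A few named miRNAs made up this concentration. miR-204 gained 15.1 percentage points of the miRNA counts and miR-125b-5p 7.41, followed by miR-30c with 0.963, the miR-720 probe with 0.832 and miR-29a with 0.823. The miR-720 probe reads a fragment of a transfer RNA rather than a miRNA. On the other side miR-9, which restrains progenitor genes in the nervous system, fell by 9.07 points, let-7c by 2.20, let-7b by 1.85, let-7d by 1.41 and miR-16 by 1.38. With miR-204 left out, the top 10 share was 66.8% at P11 and 70.6% in the adult, and the effective number was 35.1 and 28.7. With miR-204, miR-125b-5p and miR-9 all left out, the shares were 58.2% and 60.7% and the effective numbers 55.1 and 46.3. The gap in the share of the 10 most abundant probes was thus smaller without the leading probes.

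The proportions of the leading miRNAs also differed, which counts within 1 lane show without any scaling. Probes differ in ligation and capture efficiency, so here and below only the change of such a proportion between lanes can be read, not which miRNA is more abundant. For each miR-9 count there were 1.11 (1.10 to 1.12) miR-204 counts in P11 MG and 3.79 (3.75 to 3.82) in adult MG, after 0.555 in P8 MG. The same ratio for miR-125b-5p was 0.338 (0.333 to 0.342) in P11 MG and 1.45 (1.44 to 1.47) in adult MG. miR-204 and miR-125b-5p stayed closer to each other, with 3.28 miR-204 counts per miR-125b-5p count in P11 MG and 2.61 in adult MG. Between a gained and a lost family, the counts of miR-29a per count of the shared miR-20a/miR-20b probe went from 0.0616 in P8 MG to 0.651 (0.607 to 0.699) in P11 MG and 24.003 (21.4 to 26.9) in adult MG.

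Seed families were then classed by their measured members. Sequences were matched for 137 of the 179 measured probes, and 54 of these fell in 17 families with at least 2 measured members. A family was called gained when at least 50% of its measured members were higher and none lower, lost in the converse case, kept when no member was called, and mixed otherwise. On this rule 4 families were gained, 4 lost, 6 kept and 3 mixed. The gained families went from 29.5% of miRNA counts in P11 MG to 53.6% in adult MG and the lost ones from 4.56% to 1.31%. The classing on the same 2 lanes largely sets these directions. Kept families together held 7.63% and 7.11%, and mixed ones went from 23.8% to 14.9%. Most of the kept sum was the miR-181 family, with 6.16% and 6.17%, while the family of miR-25 and miR-92b went from 0.689% to 0.310%. The 4 gained and 4 lost families had the same class under all 9 other scalings of the lanes, as did let-7 among the mixed ones.

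**Figure D3:**
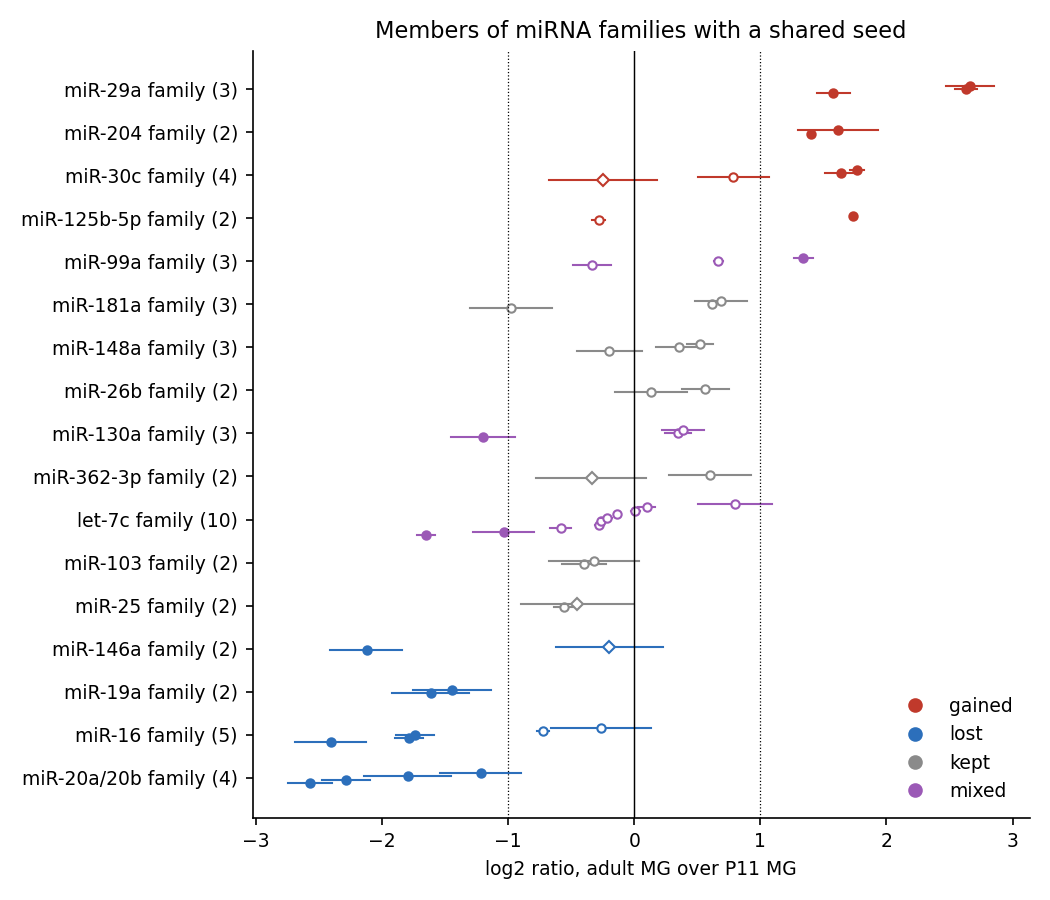
The log2 ratio of adult over P11 MG (x axis) for each measured member of the 17 seed families (y axis, named by the member with the most counts and the number measured), with 95% counting intervals and dotted lines at 2-fold. Filled points were called, diamonds have 1 library at background and are bounds, and all members of the miR-29 family and of the miR-17 family, here under miR-20a/20b, lie past the lines on opposite sides.

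The miR-29 family, which represses collagens and other matrix genes and DNA methyltransferases, was higher as a whole, 3 of 3 against 12.8% of all probes. miR-29a went from 1405 normalized counts at P11 to 8709 in the adult, a ratio of 6.197 (5.84 to 6.58), and its rank among miRNA probes from 34 to 13. miR-29b went from 281.7 to 1782, a ratio of 6.33 (5.54 to 7.24), and miR-29c from 728 to 2174, a ratio of 2.98 (2.73 to 3.26). The miR-29c call was narrowly lost on total miRNA counts (log2 ratio 0.97). The members did not move by the same amount. miR-29c held 54.2% of the family's counts at P8 and 17.2% in the adult, and miR-29a 31.7% and 68.8%. There were 1.93 (1.76 to 2.12) miR-29a counts per miR-29c count at P11 and 4.01 (3.81 to 4.22) in the adult, although their mature sequences differ at 1 position. The pair encoded side by side, miR-29a and miR-29b, had log2 ratios of 2.63 and 2.66. miR-29b also has a copy beside miR-29c, and counts of the copies cannot be told apart.

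In the miR-204 family both members were higher, against 12.8% of all probes. miR-204, which is expressed in pigment epithelium, lens and glia, had 107406 and 284092 normalized counts and a ratio of 2.65 (2.63 to 2.66). miR-211, its relative in Trpm1, had far fewer counts, 123.5 and 377.8, a ratio of 3.06 (2.46 to 3.82). The raw miR-211 count was 0.115% of the miR-204 count at P11, 0.133% in the adult and 0.125% at P8, nearly the same proportion in each glial lane. Whether the miR-211 probe reads miR-204 was not tested. On total miRNA counts miR-204, itself a large part of that total, had a log2 ratio of 0.80 and missed the threshold.

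The miR-30 family, abundant in many differentiated tissues, had 3 of 5 members by name higher and none lower, again against 12.8%. Its class above rests on the 4 measured members with a matched sequence, miR-30a, miR-30c, miR-30e and miR-384-5p, of which 2 were higher. miR-30c went from 4092 to 13918 normalized counts, a ratio of 3.40 (3.28 to 3.53), and entered the 10 most abundant probes of adult MG. miR-30a went from 701 to 2190 (3.12-fold, 2.86 to 3.42) and miR-30d from 1793 to 4693 (2.62-fold, 2.47 to 2.77). The miR-30d call was lost on total miRNA counts (log2 ratio 0.78). miR-30b, with 727 and 1294, and miR-30e, with 185.3 and 319.2, had ratios of 1.78 and 1.72 and were not called. All 5 therefore had ratios above 1 on this scaling and on the 9 others, with a family median log2 ratio of 1.39. miR-384-5p, a brain miRNA that shares the miR-30 seed, stood near background with raw counts of 104 and 84 and was not called.

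Of the miR-125 family only miR-125b-5p was called. This relative of the worm timing miRNA lin-4 went from 32730 to 109004 normalized counts, a ratio of 3.33 (3.29 to 3.37), and rose from rank 3 to rank 2. Its opposite arm, miR-125b-3p, was higher as well, with 233.0 and 574.1 normalized counts and a ratio of 2.46 (2.10 to 2.90), a call that was lost on total counts (log2 ratio 0.70). miR-125a-5p, which has the same seed, had 6879 and 5651 and a ratio of 0.821 (0.791 to 0.853). The counts of miR-125b-5p per miR-125a-5p count went from 4.76 to 19.3, and its part of the family's counts went from 82.6% to 95.1%. In the miR-99/100 family miR-100 was higher (2225 to 5638, ratio 2.53), miR-99a had a ratio of 1.59 and miR-99b one of 0.793. The miR-100 call was lost on total counts (log2 ratio 0.74).

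**Figure D4:**
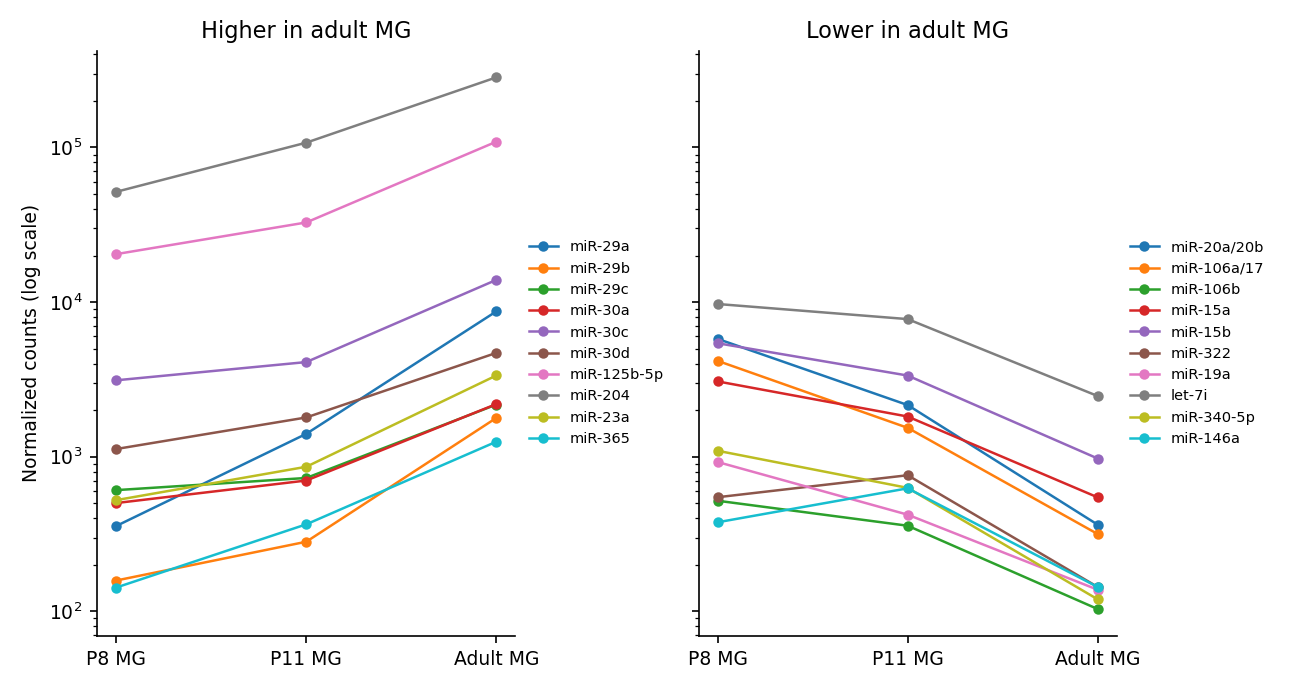
Normalized counts on a log scale (y axis) in P8, P11 and adult MG (x axis, 1 library each) for 10 miRNAs higher and 10 lower in adult MG. The lines join 3 single libraries. All 10 on the left also had more counts in P11 than in P8 MG, and on the right miR-322 and miR-146a had more counts in P11 MG than in either neighbour.

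Outside these families, 3 of the miRNAs higher in adult MG kept that call under all 9 other scalings. miR-23a, encoded in 1 cluster with miR-27a and miR-24, went from 860.4 to 3352 normalized counts and was 3.90-fold higher (3.60 to 4.22). miR-365 went from 365.2 to 1250 (3.42-fold, 3.03 to 3.88), and miR-338-3p, an arm encoded within Aatk and known from oligodendrocytes, from 205.9 to 648.8 (3.15-fold, 2.67 to 3.73). Among the calls that were lost on total counts, miR-22 had 2177 and 4932 normalized counts, a ratio of 2.27 (2.15 to 2.39). Just past the threshold stood miR-140, with a ratio of 2.06, and just short of it miR-136 with 1.99 and miR-1896 with 1.91.

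The miR-17 family, targets of MYC that promote the cell cycle, was lower in adult MG in all 4 probes, against 12.3% of all probes. The shared miR-20a/miR-20b probe went from 2158 normalized counts at P11 to 362.8 in the adult, after 5781 at P8, and its rank went from 25 at P11 to 65. The shared miR-106a/miR-17 probe went from 1537 to 315.8, 4.87-fold lower (4.27 to 5.56), and miR-106b from 357.6 to 103.3, 3.46-fold lower (2.73 to 4.42). miR-93 had 304.5 and 130.9, 2.33-fold lower (1.87 to 2.92), and missed the threshold on positive controls, ligation controls and both housekeeping scalings. The probes that sit lowest in adult MG lie close to its background, so their true ratios may be larger. miR-19a and miR-19b, from the same clusters but with a different seed, were lower by 3.06-fold (2.49 to 3.79) and 2.72-fold (2.20 to 3.38). miR-19b missed the threshold on ligation controls and on the geometric mean of housekeeping mRNAs. miR-18a, miR-18b, miR-92a and miR-363 of these clusters were above background in neither library.

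Within the miR-106b/25 cluster, which lies inside the replication gene Mcm7, the members separated. miR-106b and miR-93 were lower as given above, while miR-25, which has another seed, had 3522 and 2388 normalized counts and was 1.47-fold lower (1.40 to 1.56). Log2 ratios in the cluster thus spanned 1.23.

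The miR-15/16 family, which represses cyclins, had 3 of 5 measured members lower, against 12.3% of all probes, and none higher. miR-15b went from 3347 to 972.6 normalized counts, 3.44-fold lower (3.19 to 3.72), and miR-15a from 1818 to 545, 3.33-fold lower (3.01 to 3.70). miR-322, the rodent member encoded on the X chromosome, went from 758.5 to 143.5 (5.28-fold lower, 4.36 to 6.45). The member with the most counts moved less. miR-16 had 12006 normalized counts in P11 MG and 7263 in adult MG, 1.65-fold lower (1.60 to 1.71), and miR-195, near background, had 132.2 and 110.2. miR-16 counts per miR-15b count were 3.59 (3.45 to 3.73) in P11 MG and 7.47 (6.95 to 8.03) in adult MG, although a copy of miR-16 lies beside miR-15b within Smc4. The miR-16 counts also come from a copy on another chromosome, beside miR-15a.

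The miR-146 family was classed as lost on 1 member. miR-146a, a brake on inflammatory signalling, went from 624 normalized counts at P11 to 143.5 in the adult, 4.35-fold lower (3.58 to 5.32), and had 376 at P8. miR-146b was at background in P11 MG, with 88 raw counts, and had 87 in adult MG. miR-142-3p, an arm of a blood cell miRNA, was 2.65-fold lower (2.02 to 3.51), with 222.1 and 83.8, and its other arm miR-142-5p had 280.7 and 259.5. The miR-142-3p call was lost on ligation controls and on the geometric mean of housekeeping mRNAs. The microglia and white blood cell list thus had 1 of 3 measured members called lower, beside 12.3% of all probes, and its part in the miR-146a difference was not tested.

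Among the other lower miRNAs, miR-340-5p went from 628.5 to 119.4 normalized counts, 5.26-fold lower (4.27 to 6.55). miR-210, induced by hypoxia, went from 1973 to 798, 2.47-fold lower (2.27 to 2.70), and missed the threshold on housekeeping mRNAs and ligation controls. miR-96, of the photoreceptor cluster, was 2.08-fold lower (1.81 to 2.40) with 681.6 and 327.2 and missed it under 6 of the 9 scalings. The summed photoreceptor list was lower in adult MG as well, as given above, and its part in other differences was not tested.

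The let-7 family, which marks developmental time across animals, did not move as one, with 2 of 9 members called lower beside 12.3% of all probes and none higher. let-7i went from 7759 normalized counts at P11 to 2466 in the adult, after 9715 at P8, and was 3.15-fold lower (2.997 to 3.303) than in P11 MG, and kept this call under all 9 other scalings. miR-98 was 2.05-fold lower (1.74 to 2.43), with 485.5 and 236.5, and missed the threshold under 6 of them. The other members lay between let-7f, with a ratio of 0.667, and let-7e, with 1.07. let-7g, closest to let-7i in sequence, had 15514 and 15597 normalized counts and a ratio of 1.01 (0.982 to 1.03). let-7c counts per let-7i count went from 3.70 (3.60 to 3.79) at P11 to 10.6 (10.1 to 11.1) in the adult, after 1.67 at P8. let-7i accounted for 11.8%, 7.27% and 2.74% of the family's counts in P8, P11 and adult MG. miR-1961 shares the let-7 seed without belonging to the family by name, and had a ratio of 1.74.

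Families without a call included some of the most abundant. miR-181a, at rank 4 in both libraries, had 31702 and 48590.3 normalized counts, a ratio of 1.53 (1.51 to 1.56), and its share of counts was 6.04% and 6.09%. miR-181c had a ratio of 1.61, whereas the shared miR-181b/miR-181d probe was 1.97-fold lower (1.58 to 2.47), just short of the threshold. That family kept its class under 4 of the 9 scalings, and 3 of the other 5 called it mixed and 2 gained. miR-103 and miR-107, the miR-26 pair and the family of miR-148 and miR-152 had median log2 ratios between -0.36 and 0.35. In the family of miR-130 and miR-301, miR-130b was 2.29-fold lower (1.93 to 2.73), while miR-130a and miR-301a had ratios of 1.27 and 1.31. miR-130b missed the threshold on positive controls, ligation controls and both housekeeping scalings. miR-9, without a measured relative of its seed, had 96934 and 75023 normalized counts, 1.29-fold lower (1.28 to 1.31) on this scaling. Over the 9 other scalings its log2 ratio ran from -0.98 to 0.12, and it was called under none of them. The size and direction of its difference in level thus depend on the scaling, unlike its lower share of counts. miR-124, the neuronal miRNA, had 1322 and 1391, and its interval, 0.971 to 1.14, held equality. Of 52 imprinted miRNAs of the Dlk1-Dio3 region 12 were measured, and 1 of them, miR-376a, was called lower, against 12.3% of all probes.

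Hairpin arms and genomic neighbours show whether counts of 1 precursor moved together. Of 10 hairpins with both arms measured, 6 had arm ratios within 2-fold of each other and 4 did not. miR-335-5p had a ratio of 1.31 and its arm miR-335-3p was 2.15-fold lower, so that the 5p over 3p count went from 13.2 (11.4 to 15.5) in P11 MG to 37.4 (29.9 to 47.5) in adult MG. For miR-142 the 5p over 3p count was 1.26 (1.05 to 1.53) and 3.10 (2.37 to 4.09). For miR-340 the 5p over 3p count went the other way, from 7.77 in P8 MG to 3.72 (3.11 to 4.47) in P11 MG and 1.30 (0.962 to 1.76) in adult MG. miR-338-5p was at background in P11 MG, so the arm ratio of that hairpin is a bound. The weaker arm was within 1.5-fold of the adult background threshold in the miR-335, miR-142, miR-338 and miR-340 hairpins, where background counts make up much of the value.

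Genes within 10 kb of each other were grouped, and of 25 groups with at least 2 measured members 14 had a called member. The grouping was incomplete. It left out miR-15a with the copy of miR-16 beside it, and miR-99b beside let-7e. Of all measured probes 25.1% were called in either direction, but this share is per probe. A group of several members has a called one more often, so the shares cannot be compared. In these groups 0 held both a higher and a lower member, which would be uncommon anyway with so few members per group. Some groups share probes, as both groups of miR-181a do, so they are not separate observations. Log2 ratios within a group spread widely. miR-23a, miR-27a and miR-24 had log2 ratios of 1.96, 0.34 and 0.13, and miR-23a counts per miR-24 count went from 6.73 (5.54 to 8.24) in P11 MG to 23.9 (19.96 to 28.9) in adult MG. miR-27a and miR-24 were not called. miR-130b and miR-301b, which are neighbours, had -1.20 and a bound of 0.73. Copies of miR-24 lie in a further cluster with miR-23b, and the panel cannot separate copies.

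The number of calls in each direction depended on how the lanes were scaled, since the other scalings moved every log2 ratio by one amount, from -0.61 for total miRNA counts to 0.49 for ligation controls. After the scaling used here the positive controls had a mean log2 ratio of -0.23 (SD 0.081, n = 5), the ligation controls one of -0.49 (SD 0.22, n = 3) and the housekeeping mRNAs one of -0.46 (SD 0.19, n = 4). Against 23 higher and 22 lower, total counts gave 9 and 51, positive controls 31 and 15, TMM factors and the median of ratios 27 and 17 each. The 50 most abundant probes gave 24 and 22, and the 100 most abundant of the P11 and adult lanes alone 20 and 24. Summed housekeeping mRNAs gave 35 and 13, their geometric mean 40 and 11, and ligation controls 41 and 11. Of the 23 higher calls 9 held under all 9 other scalings, namely miR-29a, miR-29b, miR-30a, miR-30c, miR-125b-5p, miR-211, miR-23a, miR-365 and miR-338-3p. Of the 22 lower calls 11 did, namely the miR-20a/miR-20b and miR-106a/miR-17 probes, miR-106b, miR-15a, miR-15b, miR-322, miR-19a, let-7i, miR-146a, miR-340-5p and miR-709. No named miRNA that was called changed direction under any setting. The scalings could not have reversed a call, since none of them moved a ratio by as much as 2-fold.

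**Figure D5:**
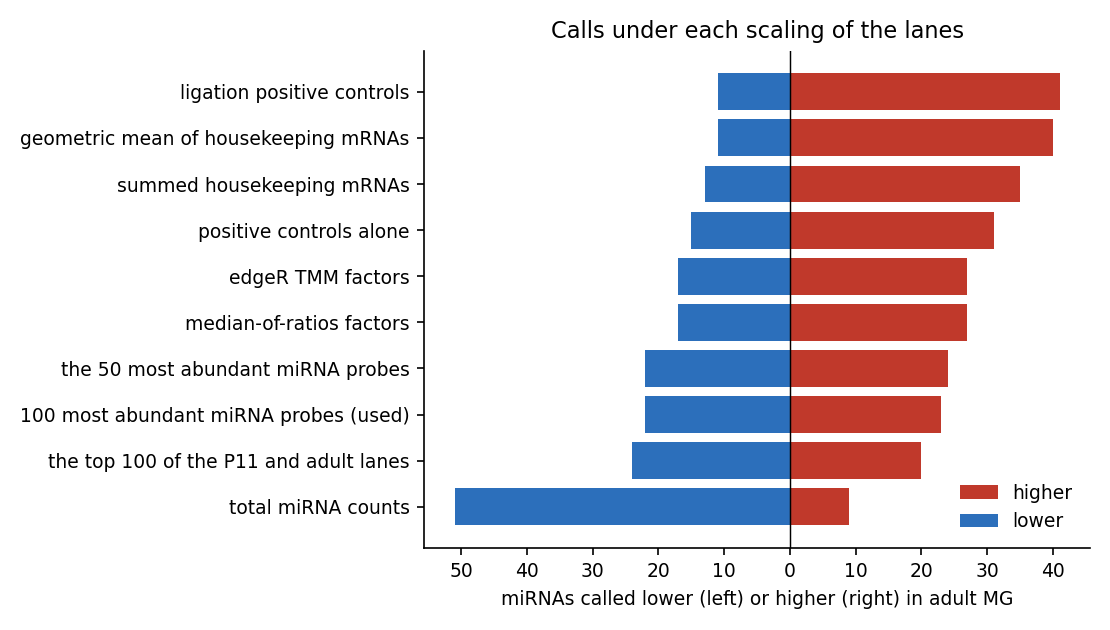
Numbers of miRNAs called lower (bars to the left) and higher (bars to the right) in adult MG than in P11 MG under each scaling of the lanes, in order of how far it moves the log2 ratios. The split runs from 51 lower and 9 higher on total miRNA counts to 11 lower and 41 higher on ligation controls, with 22 and 23 on the scaling used.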

How the data were processed

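Barcode counts per probe were used as deposited by the authors, as whole numbers in the raw table. The authors also deposited a score table, and how it was made is not given in the sources used here. It was matched to within 1 unit for 98.7% to 98.9% of probes by subtracting the mean plus 3 SD of the negative probes, multiplying by 1 factor per lane and setting a floor of 1, and it served as an alternative. Counts were scaled on the geometric mean of the 6 positive controls and then of the 100 most abundant miRNA probes over the 4 lanes (factors 1.08 for P11 MG and 1.15 for adult MG). A call needed a count above background in the higher library, a 2-fold ratio and an exact conditional binomial 95% interval without 1. Counts not above background took the threshold value, which makes the ratio a bound. Nothing was tested between groups.

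Probe names without an arm were given the guide arm where known, and sequences came from RefSeq (GRCm38.p6). Of the 179 measured probes, 5 name several miRNAs. Named miRNAs were the 15 largest called ratios per direction with raw counts no lower than 3 times background, the 10 most abundant probes of each library, members of the classed families, opposite arms and members of 31 lists. The members, lists and rules were chosen with earlier results of these data known. In simulated data for this comparison (566 probes), all 14 probes changed 3-fold and all 8 changed 8-fold at such counts were called, against 51.43% and 64.71% of all measured ones, and none of 103 unchanged ones was. The simulated lanes were all drawn from the P11 counts and differed only by these changes and counting error. They held no variation between libraries, so these rates do not tell how reliable the calls are. Alternatives covered 9 scalings, including TMM factors of edgeR 4.0.16, background rules, thresholds and the score table. Python 3.11.15, pandas 2.3.3, scipy 1.17.1 and R 4.3.3 were used.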

Additional observations from a re-analysis of the deposited data

Results flagged for a closer look

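Probes for viral miRNAs are outside the comparison and should find no target in uninfected mouse cells. In adult MG 2 of the 33 stood above the lane's background of 71.7 raw counts, mcmv-miR-m59-2 with 79 and mghv-miR-M1-7-5p with 91, and in P11 MG 0 of 33 did. Of the 30 mouse miRNA probes above background in adult MG alone, 13 exceeded 91 raw counts.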

How the results depend on the processing

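No paired analysis was possible because each age is 1 library, and for the same reason no replicate could be left out. Over the settings tried, 903 values of named miRNAs kept their side of the threshold, 75 lost a call, 28 gained one and 0 changed direction as a call. Background rules leave the ratio of a probe above background in both libraries as it was, so many of the 903 could not move. The scalings moved log2 ratios by -0.61 to 0.49, so no 2-fold call could reverse under them. The tally is therefore no measure of how reliable the calls are. The higher and lower counts of 23 and 22 became 9 and 51 on total counts, 40 and 11 on the geometric mean of housekeeping mRNAs, 35 and 13 on their sum, 41 and 11 on ligation controls, 38 and 37 at 1.5-fold, 9 and 11 at 3-fold, and 42 and 16 in the authors' score table, where the lane factor and subtraction both differ. Without miR-720 and the probes with numbers from miR-1894 to miR-1983, an alternative chosen after seeing the data, they were 16 and 22. The 4 gained families became 8 on the geometric mean of housekeeping mRNAs and 8 on ligation controls. The 4 lost ones became 3 with background at the mean plus 3 SD or at the highest negative or viral probe, and in the score table. The 6 kept ones became 3 on ligation controls and 2 in the score table, and the 3 mixed ones became 1 on the geometric mean of housekeeping mRNAs and 1 at 3-fold. In the cases without a stated reason the cause was not tested. The share of the 10 most abundant probes, 71.5% in P11 MG and 79.4% in adult MG, was 74.8% and 81.3% after subtracting the negative mean, 74.4% and 80.9% over probes above background, 73.0% and 80.5% without miR-720, 66.8% and 70.6% without miR-204, and 77.3% and 82.6% in the score table, so adult MG was higher in each. With the mean of the negative probes as background, 339 probes in P11 MG and 328 in adult MG stood above it instead of 149 and 171, and with the highest negative or viral probe, chosen after seeing the data, 159 and 140 did, so the order of the libraries turned under both. Raw counts up to 105.8 in P11 MG or 71.7 in adult MG cannot be told from background.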

Other observations

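Probes with numbers from miR-1894 to miR-1983 were higher in adult MG in 6 of 18 measured (33.3%) and lower in 0, and of the other measured probes 17 of 161 (10.6%) were higher. Their median log2 ratio was 0.80, against -0.20 for the other measured probes, and together they held 2.20% of miRNA counts in P11 MG and 1.78% in adult MG. Among them miR-1968 had 200.5 and 550 normalized counts, miR-1927 had 593.8 and 1528, and miR-1933-5p had 134.4 and 291.7. miR-709 had 292.6 and 91.9 and was 3.19-fold lower (2.47 to 4.14). A comparison of base composition between called and other miRNAs was void, since mature sequences were matched for 16 of the 23 higher probes.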
